A study of Mus musculus with 4 samples.

Results

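The genes that consume NAD or its precursor nicotinamide were examined in single-nucleus RNA-Seq of mouse liver. The set held 10 genes chosen by name, of 54464 in the deposited count matrix: the sirtuins Sirt1, Sirt2, Sirt3, Sirt5 and Sirt6, the poly- and mono-ADP-ribosyltransferases Parp1, Parp2 and Parp14, the NAD glycohydrolase Cd38 and the nicotinamide N-methyltransferase Nnmt. Livers came from 3 mice with hepatocyte-specific deletion of Nampt (HNKO; Nampt fl/fl, Alb-Cre+/-) and 3 floxed littermates without Cre (WT), all female, C57BL6/BomTac per the labels, 8 to 12 weeks old when the diet began and fed a purified control diet (PD) for 6 weeks. Cre was driven by the albumin promoter, so recombination is directed to hepatocytes, and both genotypes carried the floxed allele. Nuclei of the 6 mice were tagged with antibodies, pooled and sequenced, and each nucleus was assigned to its mouse by the authors. The labels list 2 RNA pools and 2 hashtag pools, and the deposited barcodes do not tell the pool of a nucleus. Pool was therefore not a term of any fit, and the mouse is the replicate throughout.

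NAD is spent by enzymes that split off its nicotinamide. Sirtuins do so when they remove acyl groups from proteins, PARPs when they attach ADP-ribose to proteins, and CD38 when it hydrolyses NAD, largely at the cell surface. The nicotinamide that is set free can be rebuilt into NAD by the salvage pathway, whose rate-limiting enzyme is NAMPT, or be methylated by NNMT with S-adenosylmethionine as methyl donor and so be lost to salvage. In liver, SIRT3 and SIRT5 act in mitochondria, and CD38 is known as a surface protein of immune and endothelial cells.

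The data held 5193 nuclei, 629 to 1063 per mouse, with 3766532 to 7763269 UMIs (unique molecular identifiers, each standing for 1 captured transcript) per mouse and no barcode in common between nuclei. Hepatocytes gave 562 to 847 nuclei per mouse and the other types far fewer, with 26 to 71 endothelial, 16 to 43 stellate and 7 to 68 CD45+ nuclei. WT mice had 4 to 6 Kupffer nuclei each and 2 cholangiocytes in all, so those types are described in HNKO mice alone, with no genotype comparison. HNKO mouse 3 stood apart: its own hashtag made up 49.0% of hashtag counts (66.1% to 80.3% in the other mice), and 6 hepatocyte markers (Alb, Apob, Ttr, Cps1, Serpina1c and Cyp3a11) summed to 9117 CPM (UMIs of a gene per 1000000 UMIs of the sum) in its hepatocytes against 20550 to 26879 CPM in the others. Nampt itself (chromosome 12, positions 32819545 to 32853349, plus strand) was at 84.8, 105 and 96.9 CPM in hepatocytes of WT mice 1, 2 and 3 and at 84.1, 148 and 90.8 CPM in HNKO mice 1, 2 and 3. The groups overlapped, and the fitted log2 fold change was 0.03 (SE 0.27, edgeR FDR 0.985). Reads of this assay start near the 3′ end of transcripts or inside introns and may lie outside the deleted part, so Nampt counts do not check the genotype, and the groups are mice labelled WT and HNKO.

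The members showed 4 distinct patterns over cell types, and the first was that of Cd38 (chromosome 5, positions 43868553 to 43912375, plus strand; GRCm38). Cd38 expression was 787 ± 74.6 CPM in Kupffer cells (SD, n = 3 HNKO mice), the resident macrophages of liver, and 552 ± 105 CPM in endothelial cells (SD, n = 6 mice). CD45+ cells, which are leukocytes, had 164 ± 95.6 CPM (n = 5), stellate cells 36.2 ± 15.4 CPM (n = 6), cholangiocytes 6.32 ± 5.76 CPM (n = 3) and hepatocytes 2.34 ± 0.451 CPM (n = 6). The ranges over mice did not overlap from Kupffer to stellate cells, nor between stellate cells and cholangiocytes, and overlapped for the last pair. The Kupffer range is that of HNKO mice alone. Because cell types were clustered on these same nuclei, levels between types are a description and were not tested. The authors split the CD45+ cells into 3 clusters, and Cd38 was at 178, 50.7 and 265 CPM in CD45+ 1, CD45+ 2 and CD45+ 3.

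Cd38 by mouse was 640, 364 and 629 CPM in endothelial cells of WT mice 1, 2 and 3, from 57, 33 and 68 UMIs. HNKO mice 1, 2 and 3 had 614, 505 and 558 CPM there, from 195, 93 and 87 UMIs. All HNKO values lay between the lowest and the highest WT value. In Kupffer cells the HNKO mice had 846, 703 and 811 CPM, and the few Kupffer nuclei of WT mice held 11, 7 and 11 UMIs of Cd38, so the gene was also detected there. Those WT counts came to 535, 221 and 863 CPM, below the endothelial value in WT mice 1 and 2 and above it in WT mouse 3. The order of Kupffer over endothelial cells thus rests on HNKO mice. After each nucleus was thinned to 1500 UMIs, 136 of 245 endothelial nuclei (55.5%, exact 95% interval 49.0% to 61.8%) and 44 of 80 Kupffer nuclei (55.0%, 43.5% to 66.2%) held a Cd38 UMI. The same measure gave 29 of 177 CD45+ nuclei (16.4%, 11.3% to 22.7%) and 23 of 4400 hepatocyte nuclei (0.523%, 0.332% to 0.783%). Without thinning the shares were 74.7% in endothelial nuclei (median 3017 UMIs) and 1.50% in hepatocyte nuclei (median 4484 UMIs). These intervals cover counting error only.

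The hepatocyte level of Cd38 was inside the span of endothelial markers counted in the same nuclei. It stood at 0.425% of the endothelial level, and 5 endothelial markers (Stab2, Ptprb, Pecam1, Kdr and Clec4g), which hepatocytes should lack, stood at 0.179% to 0.826%. In single mice the Cd38 ratio ran from 0.286% to 0.765%. Whether the hepatocyte counts were RNA carried over from other nuclei or low expression was not tested. Stellate cells were different, with Cd38 at 6.56% of the endothelial level against 0.311% to 2.36% for the same markers, although this rested on 27 UMIs over 6 mice.

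**Figure D1:**
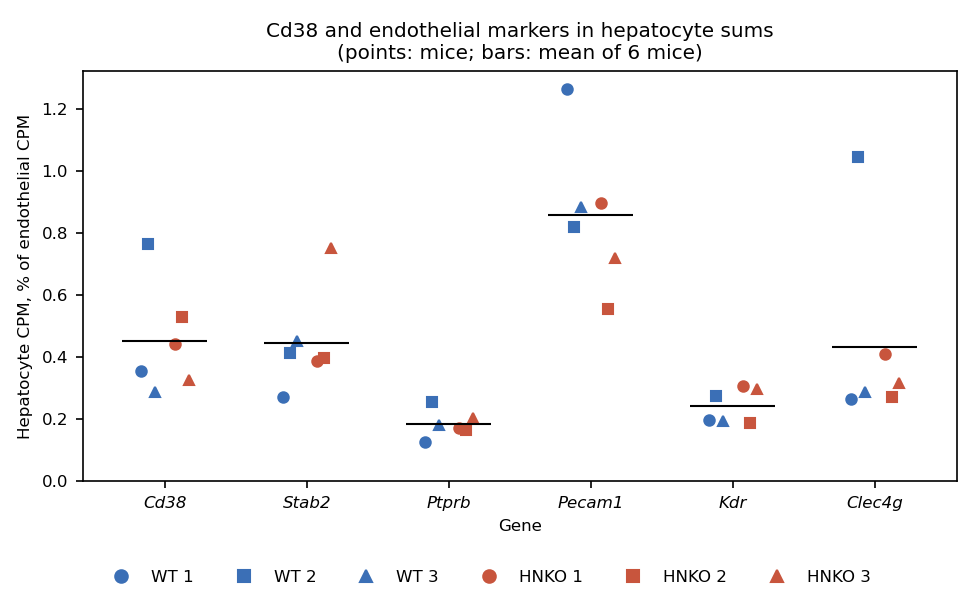
Level of Cd38 and of 5 endothelial markers in hepatocyte sums, as a percentage of their level in endothelial sums of the same mouse (y axis, linear); points are mice, blue WT and red HNKO, and bars are means of 6 mice. Cd38, at 0.286% to 0.765%, lies within the span of the markers.

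The second pattern was that of Sirt3, a mitochondrial protein deacetylase (chromosome 7, positions 140863666 to 140882309, minus strand). Sirt3 was at 152, 139 and 157 CPM in hepatocytes of WT mice 1, 2 and 3 and at 138, 155 and 175 CPM in HNKO mice 1, 2 and 3, from 535 to 960 UMIs. Every one of these values lay above every mouse of every other type, of which CD45+ cells were next with 63.6 ± 24.7 CPM (SD, n = 5) and Kupffer cells last with 22.9 ± 11.7 CPM (n = 3). From CD45+ cells downward, all neighbours in this order overlapped. Outside hepatocytes, the Sirt3 signal was inside the span of the hepatocyte markers. It stood at 25.9% of the hepatocyte level in endothelial cells, where the 6 hepatocyte markers stood at 24.0% to 54.3%, and at 15.2% in stellate cells (markers 8.51% to 39.5%). In CD45+ cells, Kupffer cells and cholangiocytes it was likewise inside the span of those markers. The spans were wide, as in cholangiocytes (markers 4.16% to 63.1%, Sirt3 41.4%). Carried-over RNA and expression of Sirt3 in these types therefore cannot be told apart. Kupffer cells and cholangiocytes of 3 HNKO mice were set against hepatocytes of 6 mice. Hepatocyte markers were counted in nuclei of every other type, and the 5 endothelial markers together reached 28.4 to 41.9 CPM in hepatocytes.

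Nnmt (chromosome 9, positions 48591877 to 48605153, minus strand) followed Sirt3 with a larger spread between mice. Its mean was 78.4 ± 30.1 CPM in hepatocytes (SD, n = 6) and 13.9 to 29.5 CPM in the 5 other types, which held 6 to 18 Nnmt UMIs each over all mice. The hepatocyte range (38.8 to 116 CPM) overlapped that of CD45+ cells (0 to 59.0 CPM). In endothelial cells Nnmt stood at 17.9% of its hepatocyte level, below the 24.0% to 54.3% of hepatocyte markers, and in the other 4 types it was within their span. Thinned to 1500 UMIs, 9.59% of hepatocyte nuclei (8.74% to 10.5%) and 1.22% of endothelial nuclei (0.253% to 3.54%) held an Nnmt UMI.

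Promoters of the members with the clearest contrast are shown because Cd38 was counted mostly outside hepatocytes and Sirt3 mostly in them. Both are windows of 300 bases around a RefSeq transcript start (GRCm38.p6), and capitals mark GC boxes (GGGCGG or CCGCCC) and CCAAT boxes (CCAAT or ATTGG), searched on both strands. The Cd38 promoter is at chr5:43868559-43868858 (plus strand) and the one of 2 listed Sirt3 promoters that holds GC boxes is at chr7:140881820-140882119 (minus strand).
Cd38: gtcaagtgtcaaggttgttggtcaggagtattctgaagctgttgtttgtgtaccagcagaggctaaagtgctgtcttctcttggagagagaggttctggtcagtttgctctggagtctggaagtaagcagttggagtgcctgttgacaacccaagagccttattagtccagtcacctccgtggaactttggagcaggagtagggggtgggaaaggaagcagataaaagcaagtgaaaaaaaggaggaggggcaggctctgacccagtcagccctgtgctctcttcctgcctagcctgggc
Sirt3: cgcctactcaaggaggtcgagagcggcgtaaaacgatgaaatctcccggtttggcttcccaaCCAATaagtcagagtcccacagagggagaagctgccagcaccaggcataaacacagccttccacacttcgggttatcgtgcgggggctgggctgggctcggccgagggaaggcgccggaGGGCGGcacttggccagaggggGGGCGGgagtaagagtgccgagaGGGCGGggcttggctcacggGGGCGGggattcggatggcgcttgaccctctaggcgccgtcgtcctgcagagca
The Cd38 window held 1 CpG and none of these motifs, and the Sirt3 window shown held 24 CpGs, 4 GC boxes and 1 CCAAT box. It was chosen for its boxes: the other Sirt3 window held 23 CpGs and, like that of Cd38, neither motif. The 8 members with a RefSeq promoter had 10 entries, of which 7 held a GC box, against 35.7% of all 32851 entries, and 3 a CCAAT box, against 37.4%. These counts describe letters in a window. Parp14 and Nnmt had no promoter entry.

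Parp14, a mono-ADP-ribosyltransferase known as an interferon-stimulated gene (chromosome 16, positions 35832874 to 35871544, minus strand), gave the third pattern, with counts in every type and the least in hepatocytes. It was highest in Kupffer cells at 340.5 ± 78.8 CPM (SD, n = 3 HNKO mice), with 253, 406 and 363 CPM in HNKO mice 1, 2 and 3. Endothelial cells followed with 148 ± 38.6 CPM (n = 6), then stellate cells with 116 ± 51.1 CPM (n = 6), CD45+ cells with 94.5 ± 55.4 CPM (n = 5), cholangiocytes with 53.4 ± 21.03 CPM (n = 3) and hepatocytes with 32.8 ± 9.92 CPM (n = 6). Only the Kupffer cells, of HNKO mice alone, were clear of their neighbour, and the other neighbours overlapped. The few Kupffer nuclei of WT mice 1, 2 and 3 had 292, 221 and 157 CPM, from 6, 7 and 2 UMIs. Endothelial cells of these mice had 146, 132 and 194 CPM. Hepatocytes held 105 to 283 Parp14 UMIs per mouse, at 22.2% of the endothelial level, far above the endothelial markers in hepatocytes (0.179% to 0.826%). Thinned to 1500 UMIs, 22 of 80 Kupffer nuclei (27.5%, 18.1% to 38.6%) and 210 of 4400 hepatocyte nuclei (4.77%, 4.16% to 5.44%) held a UMI.

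The remaining members formed the fourth pattern, with no order of types beyond the spread of mice. Sirt1, a nuclear deacetylase (chromosome 10, positions 63319005 to 63381704, minus strand), had means of 17.1 to 22.9 CPM in all 6 types, and every pair of neighbours overlapped. Sirt2, a mainly cytoplasmic deacetylase (chromosome 7, positions 28766735 to 28788661, plus strand), ran from 15.2 ± 16.99 CPM in CD45+ cells (n = 5) to 64.0 ± 39.5 CPM in endothelial cells (n = 6), again with overlap at each step. Sirt5, a mitochondrial desuccinylase (chromosome 13, positions 43365496 to 43395203, plus strand), was at 9.85 to 26.7 CPM. The PARPs that respond to DNA breaks were at 6.37 to 22.0 CPM for Parp1 (chromosome 1, positions 180568924 to 180601254, plus strand) and 6.13 to 13.6 CPM for Parp2 (chromosome 14, positions 50807841 to 50821301, plus strand). Outside hepatocytes these means rest on 0 to 15 UMIs per mouse. Sirt6, a chromatin-bound deacetylase (chromosome 10, positions 81621785 to 81627797, minus strand), had 4 to 13 UMIs per mouse in hepatocytes and 0 to 2 in any other sum, and 0 of 80 thinned Kupffer nuclei held one, which allows up to 3.75% of nuclei with a UMI (3 counts of 80) and sets no limit on the nuclei that express the gene. All 10 are protein-coding genes. Sirt2 overlaps Nfkbib and Sirt3 overlaps Ric8a and Psmd13 on the opposite strand, and these neighbours had at most 3.42 and 19.5 CPM in hepatocytes; whether the counting used strand is not given in the sources used here.

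**Figure D2:**
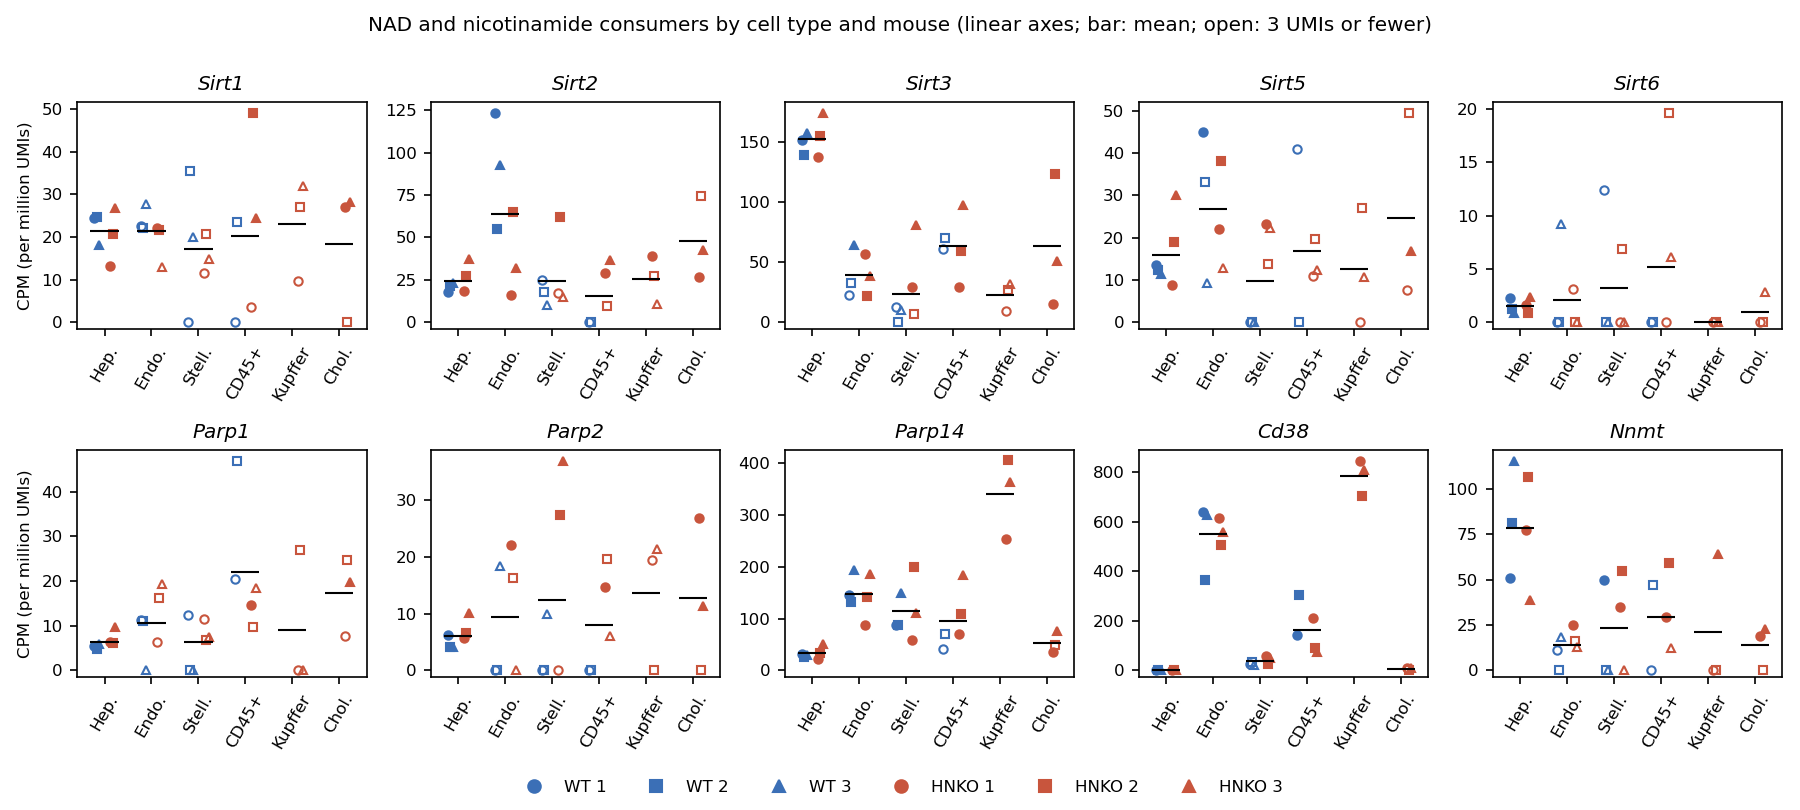
CPM of the 10 genes (y axes, linear) in 6 cell types (x axes) by mouse, blue WT and red HNKO, for sums of at least 10 nuclei; bars are means over mice and open symbols rest on 3 UMIs or fewer. Cd38 and Parp14 have their highest mean in Kupffer cells (787 and 340.5 CPM, HNKO mice alone), Sirt3 and Nnmt in hepatocytes (153 and 78.4 CPM).

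Genes with the most similar profile were sought over 29 sums of a mouse and a type, among 9043 genes with a mean of at least 10 CPM. These sums share mice, depth and the carried-over hepatocyte RNA, so r is a description. For Cd38 the nearest were Slc9a9, Nptn and Tmcc3 (Pearson r of log2(CPM + 1) 0.95, 0.95 and 0.94). For Parp14 they were Map3k3, Rnf213 and Macf1 (0.84 each), and Rnf213 is also on the list of interferon-stimulated genes used below. Sirt3 was nearest to Tbc1d24, Bmp1 and Cyp2j5 (0.88, 0.85 and 0.84) and Nnmt to Ppp4r4 and Aifm2 (0.79 and 0.78). The highest r of the other 6 members was 0.60 to 0.86, from sparse counts.

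Whether loss of hepatocyte Nampt went with a change of the consumers was asked in hepatocyte sums. There, values are TMM-scaled CPM, in which a scaling factor per mouse evens out the bulk of genes (1.28 in HNKO mouse 3, 0.92 to 1.01 in the others). None of the 9 members tested passed FDR 0.05, nor did any of the 11810 genes tested (0% called; edgeR quasi-likelihood), of which 698 (5.91%) but no member were under 0.05 before adjustment. By DESeq2, 21 genes and no member were called. Sirt6 did not pass the count filter. The log2 fold changes of the 9 members (HNKO over WT) had a median of 0.05, against 0.02 over all genes, and 5 were positive. No member had groups that did not overlap, which 11.6% of all genes had.

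Nnmt had the widest spread. WT mice 1, 2 and 3 had 55.2, 84.2 and 124 TMM-scaled CPM, and HNKO mice 1, 2 and 3 had 85.2, 106 and 30.5. HNKO mouse 3 was lowest of all 6 and the other HNKO mice lay inside the WT range, with a log2 fold change of -0.25 (SE 0.46, FDR 0.93). Its log2 fold change became 0.13 without HNKO mouse 3 and 0.08 without WT mouse 3. Sirt1 was 26.5, 25.5 and 19.5 in WT and 14.4, 20.6 and 21.1 in HNKO mice, so the groups overlapped through WT mouse 3 (log2 fold change -0.35, SE 0.23, FDR 0.82, and -0.73 with FDR 0.88 in thinned nuclei).

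For Sirt5 the WT mice had 14.8, 12.9 and 12.3 TMM-scaled CPM, and HNKO mice 1, 2 and 3 had 9.59, 18.8 and 23.6. HNKO mice thus lay on both sides of the WT group (log2 fold change 0.39, SE 0.33, FDR 0.85). Leaving out HNKO mouse 1, which was the lowest, the log2 fold change was 0.68 and the FDR 0.69, without HNKO mouse 3 it was 0.10, and in nuclei thinned to 1500 UMIs it was 1.33 (SE 0.50, FDR 0.86). Parp2 was 6.79, 4.21 and 4.33 in WT and 6.28, 6.49 and 8.02 in HNKO mice (log2 fold change 0.45, SE 0.29, FDR 0.82), and WT mouse 1 lay among the HNKO mice. Parp1 was 5.86, 5.00 and 6.25 in WT and 6.95, 6.16 and 7.74 in HNKO mice (0.28, SE 0.24, FDR 0.85), where WT mouse 3 was above HNKO mouse 2.

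Sirt3, the member with the most counts, varied least, at 159 ± 12.6 TMM-scaled CPM in WT and 148 ± 8.90 in HNKO mice (SD, n = 3 each; log2 fold change -0.11, SE 0.16, FDR 0.90, but 0.06 with library size as the scaling). Sirt2 was 22.1 ± 2.55 and 25.4 ± 4.80 (0.20, SE 0.21, FDR 0.86) and Parp14 31.7 ± 3.82 and 32.9 ± 7.71 (0.05, SE 0.22, FDR 0.97). Cd38, inside the span of endothelial markers in hepatocytes, was 2.43 ± 0.487 and 2.36 ± 0.816 (-0.05, SE 0.39, FDR 0.98, and 0.08 with library size as the scaling). HNKO mouse 3 was the highest of 6 mice for 5 of the 9 members (Sirt2, Sirt5, Parp1, Parp2 and Parp14) and the lowest for Sirt3, Cd38 and Nnmt, and over all genes it was highest for 29.6% and lowest for 26.6%. On plain CPM it was highest for 7 of the 9, Sirt3 among them, and lowest for 1. Without this mouse the log2 fold changes became 0.10 for Sirt5, 0.13 for Nnmt, 0.23 for Cd38 and -0.11 for Parp14.

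**Figure D3:**
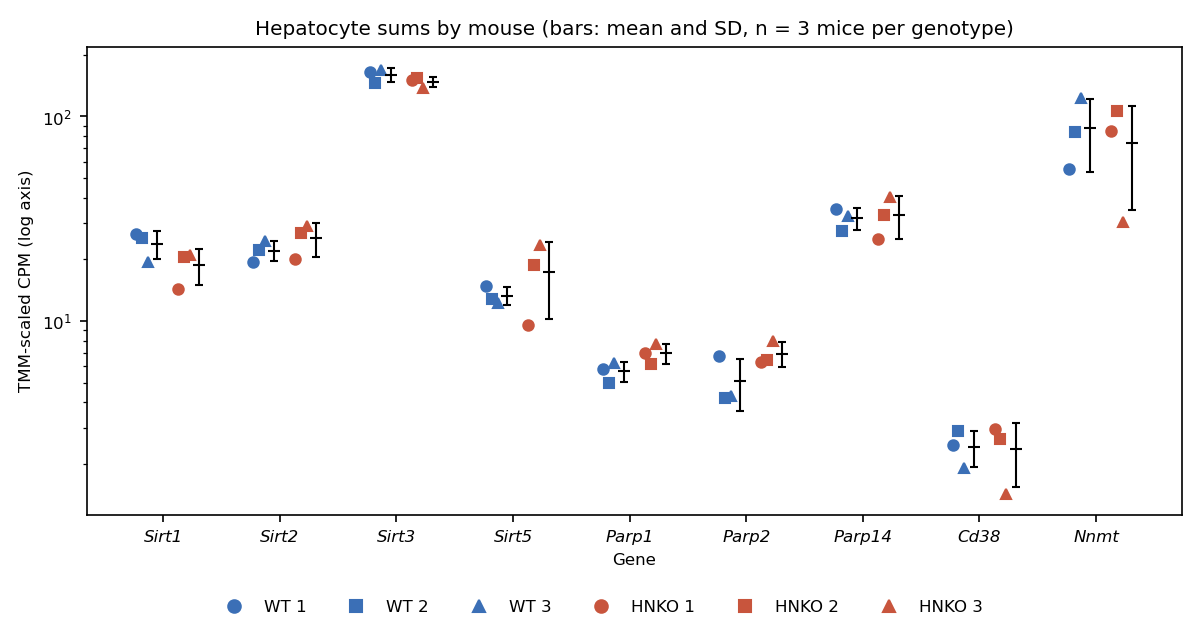
TMM-scaled CPM (y axis, log scale) of 9 members (x axis) in hepatocyte sums; points are mice, blue WT and red HNKO, and bars are mean and SD (n = 3 per genotype). The groups overlap for each of the 9 genes, and HNKO mouse 3 (triangle) is lowest for Nnmt at 30.5.

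In hepatocytes, clusters were for the most part those of 1 mouse. Nnmt was lowest in the clusters HNKO 2, Hepatocytes 4 and HNKO 3 (35.1, 37.2 and 41.5 CPM), of which HNKO mouse 3 gave 97.0% of the first and 99.0% of the last and WT mouse 1 gave 96.6% of the other. It was highest in Periportal 2 (137 CPM, 99.2% from WT mouse 3). Over the 13 hepatocyte clusters, Sirt3 ran only from 130 CPM in Central HNKO 1 to 211 CPM in Central HNKO 2. Parp14 ran from 18.5 CPM in Central 1 to 60.9 CPM in HNKO 2. Sirt5 was 33.4 CPM in HNKO 2, 27.8 in Central HNKO 2 and 23.1 in HNKO 3, all clusters of HNKO mouse 3, whereas the remaining clusters had 4.45 to 16.7 CPM. These cluster values are plain CPM, without the scaling factor of 1.28 of HNKO mouse 3. The highest clusters of Sirt3, Parp14 and Sirt5 were all clusters of that mouse.

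The other genes of the pathways were taken from fixed lists, and in hepatocytes 0 of them passed FDR 0.05. Of 13 other PARP family genes all were tested, 9 had a positive log2 fold change and the largest sizes were those of Tiparp (-0.37) and Parp10 (0.35). Sirt4, a mitochondrial sirtuin, was 0.85 (SE 0.61, FDR 0.83). It had 12, 8 and 6 UMIs in WT and 12, 17 and 55 in HNKO mice, with the largest count in HNKO mouse 3. Sirt7 was 0.06. Both NAD kinases were negative (Nadk2 -0.28, Nadk -0.20) and both tested nicotinamide oxidases were positive (Aox1 0.37, Aox3 0.01). In the methyl donor cycle, a list of genes around S-adenosylmethionine and not only of its supply, 4 of 10 were positive, and Ahcy (-0.82, SE 0.39, FDR 0.82) and Mat1a (-0.54) were the largest. Ahcy was 295, 301 and 376 TMM-scaled CPM in WT and 225, 246 and 80.7 in HNKO mice. Of the 46 pathway genes tested 3 had groups that did not overlap (11.6% of all genes did), which were Ahcy and, higher in HNKO mice, Parp3 (7.93 to 9.47 in WT, 9.89 to 11.3 in HNKO) and Parp6 (16.7 to 19.7 and 20.2 to 21.2). Removal of ADP-ribose had 5 of 6 genes tested, all positive (Macrod2 0.37, Oard1 0.16). Of 20 interferon-stimulated genes 13 were tested, with a median of -0.12, led by Ifit3 (-0.94, SE 0.55, FDR 0.82) and Rsad2 (-0.76). The NAD glycohydrolases Bst1 and Sarm1 did not pass the count filter in any comparison.

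Outside hepatocytes, Cd38 and Parp14 were the members with counts enough to test. Cd38 in endothelial cells had a log2 fold change of 0.03 (SE 0.25, FDR 0.996). Parp14 there was 146, 132 and 194 CPM in WT and 88.2, 141 and 186 CPM in HNKO mice (log2 fold change -0.26, SE 0.35, FDR 0.996). In stellate cells Parp14 was 86.8, 88.5 and 150 CPM in WT and 57.9, 199 and 111 CPM in HNKO mice (0.10, SE 0.51, FDR 0.97). Of 2743 and 2266 genes tested in these types, 0 (0%) were called in each, and groups did not overlap for 9.99% and 11.7% but for no member. Before adjustment 3.79% and 7.06% of genes, but no member, were under 0.05.

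In CD45+ cells, Cd38 was 143 and 305 CPM in WT mice 1 and 2 and 212, 88.4 and 73.6 CPM in HNKO mice 1, 2 and 3 (log2 fold change -0.77, SE 0.59, FDR 0.82). Parp14 was 40.8 and 70.4 CPM in WT and 69.5, 108 and 184 CPM in HNKO mice (1.06, SE 0.74, FDR 0.77), from 2 and 3 UMIs in WT mice. WT mouse 3 had 7 CD45+ nuclei and was left out of this fit. The make-up of the type differed between mice: CD45+ 3, the cluster with the most Cd38, gave 5 of 15 and 5 of 16 nuclei in WT mice 1 and 2, against 5 of 68, 3 of 26 and 6 of 45 in HNKO mice, and CD45+ 1, the cluster with the most Parp14 (133 CPM, against 71.0 in CD45+ 2 and 23.0 in CD45+ 3), gave 5 and 5 against 52, 14 and 25. Their part in the Cd38 and Parp14 values was not tested. None of 2703 genes was called (0%), 222 (8.21%) but no member were under 0.05 before adjustment, and 4 genes, none a member, were called by DESeq2. Groups of this size did not overlap for 26.7% of genes and for no member.

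Whether genotype acted differently in hepatocytes than in endothelial cells was asked with an interaction term. Of 9 members 0 passed FDR 0.05, of all 12554 genes 11 (0.0876%), and 1 member had an unadjusted p under 0.05 (5.15% of all genes). This was Sirt2, with a log2 difference of 1.47 (SE 0.60, unadjusted p = 0.0147, FDR 0.81, FDR 0.49 to 1.00 over the alternatives). In endothelial cells Sirt2 was 124, 55.2 and 92.5 CPM in WT mice 1, 2 and 3, from 11, 5 and 10 UMIs, and 15.8, 65.2 and 32.1 CPM in HNKO mice, from 5, 12 and 5 UMIs. HNKO mouse 2 lay within the WT range.

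Zonation was examined last. Blood flows through the liver lobule from portal to central veins, and hepatocytes along this path differ in metabolism. Hepatocyte nuclei with at least 10 UMIs of 22 index genes (pericentral such as Cyp2e1 and Glul, periportal such as Sds and Hal, none a member) were sorted within each mouse by the pericentral share and split into 3 equal groups of 183 to 268 nuclei; the group with the highest share is called the pericentral zone and that with the lowest the periportal zone. The 3 clusters that the authors named Central put 217 of 218, 94 of 94 and 78 of 78 nuclei in the pericentral zone. Those clusters were made from the expression of the same nuclei, so this is no separate check of the zones. Clusters not named Central also gave many nuclei to this zone, such as Hepatocytes 1 with 346 and Hepatocytes 3 with 163. Position in the lobule was not measured. The share at the upper cut was 0.149 to 0.266 in 5 mice and 0.452 in HNKO mouse 3, and 186 to 558 nuclei per mouse lay within 0.05 of a cut.

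Of 6 members tested between zones 0 passed FDR 0.05, against 1687 of 8259 genes (20.4%; 980 higher and 707 lower in the pericentral zone, or 672 and 1236 with library size as the scaling), and 2 had an unadjusted p under 0.05 (31.7% of all genes). These were Nnmt and Sirt3. Nnmt was 88.6, 95.6 and 163 TMM-scaled CPM in the periportal zone of WT mice 1, 2 and 3 and 36.5, 94.5 and 96.9 in their pericentral zone. In HNKO mice 1, 2 and 3 the values were 90.0, 116 and 37.9 periportal and 95.2, 102 and 28.1 pericentral. Nnmt was thus lower in the pericentral zone in 5 of 6 mice on this scale, by little in WT mouse 2, and in 6 of 6 on plain CPM. The log2 difference was -0.37 (SE 0.14, FDR 0.071). It passed without HNKO mouse 1 (-0.48, FDR 0.027), in nuclei thinned to 1500 UMIs (-0.51, FDR 0.031), with no count filter (-0.39, FDR 0.0081) and with library size as the scaling (-0.47, FDR 0.018), which moved the median of all genes to -0.11. Over all alternatives the FDR ran from 0.0081 to 0.64.

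By genotype the Nnmt difference between zones was -0.61 (SE 0.18, FDR 0.029) in WT and -0.14 (SE 0.14, FDR 0.64) in HNKO mice. The test of the difference itself gave 0.48 (SE 0.25, FDR 0.85), so a different zonation of Nnmt in HNKO mice was not shown. In HNKO mouse 1 the cluster Central HNKO 1 had 109 CPM of Nnmt and the cluster HNKO 1 had 73.3 CPM, whereas in WT mouse 3 the cluster Periportal 2 had 137 CPM and Hepatocytes 3 had 90.8 CPM. In HNKO mouse 3, Central HNKO 2 had 53.2 CPM against 35.1 in HNKO 2 and 41.5 in HNKO 3, although its pericentral zone was the lower one. Central 1, with nuclei of several mice, had 79.4 CPM, against 120 in Periportal 1 and 74.5 in Periportal 3. Periportal 3 came to 94.8% from WT mouse 1, so this pair also compares mice. In WT mouse 1 the cluster Hepatocytes 4, with 115 of 203 nuclei in the pericentral zone, had 37.2 CPM, below Periportal 3. The clusters thus gave no single direction, and they were not tested.

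Sirt3 was higher in the pericentral zone in 6 of 6 mice, as 21.7% of genes had 1 direction in every mouse. The size was small, at 166 against 147 TMM-scaled CPM (log2 difference 0.17, SE 0.07, FDR 0.10). It passed with narrower zones, the outer groups of 4 equal ones (0.24, FDR 0.041) but was 0.07 (FDR 0.50) with library size as the scaling and -0.09 in thinned nuclei. Sirt1 (0.21), Sirt2 (0.08), Sirt5 (-0.07) and Parp14 (-0.01) had FDRs of 0.41 to 0.97, and the last 3 changed sign in other settings. Sums of the stellate, endothelial, CD45+ and cholangiocyte marker lists moved with the zones, but most of each sum was 1 gene that hepatocyte nuclei also counted. The 5 stellate markers had a median of 128 CPM pericentral against 28.6 periportal, the 5 endothelial markers 40.5 against 28.9 and the 5 CD45+ markers 204 against 109, each higher in 6 of 6 mice, while the 6 cholangiocyte markers had 310 against 361 CPM, lower in 6 of 6. Reln made up 88.0% of the stellate sum over all hepatocyte nuclei, Stab2 68.0% of the endothelial, Ripor2 80.3% of the CD45+ and Pkhd1 94.7% of the cholangiocyte sum. Without Reln the other 4 stellate markers had 9.52 against 11.6 CPM, and without Stab2 the other 4 endothelial markers 9.88 against 10.1 CPM, each higher in 3 of 6 mice. Without Ripor2 the other 4 CD45+ markers had 33.8 against 22.8 CPM, higher in 6 of 6 mice, and without Pkhd1 the other 5 cholangiocyte markers 15.8 against 19.3 CPM, lower in 5 of 6. The 5 Kupffer markers had 9.23 against 7.34 CPM, higher in 3 of 6 mice. Cd5l made up 29.2% of that sum, and without it the other 4 had 7.01 against 5.36 CPM, higher in 5 of 6 mice. Nuclei of the pericentral zone were shallower in 6 of 6 mice, with medians of 3452 to 5293 UMIs against 4097 to 6724. The part of these in the member values was not tested.

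**Figure D4:**
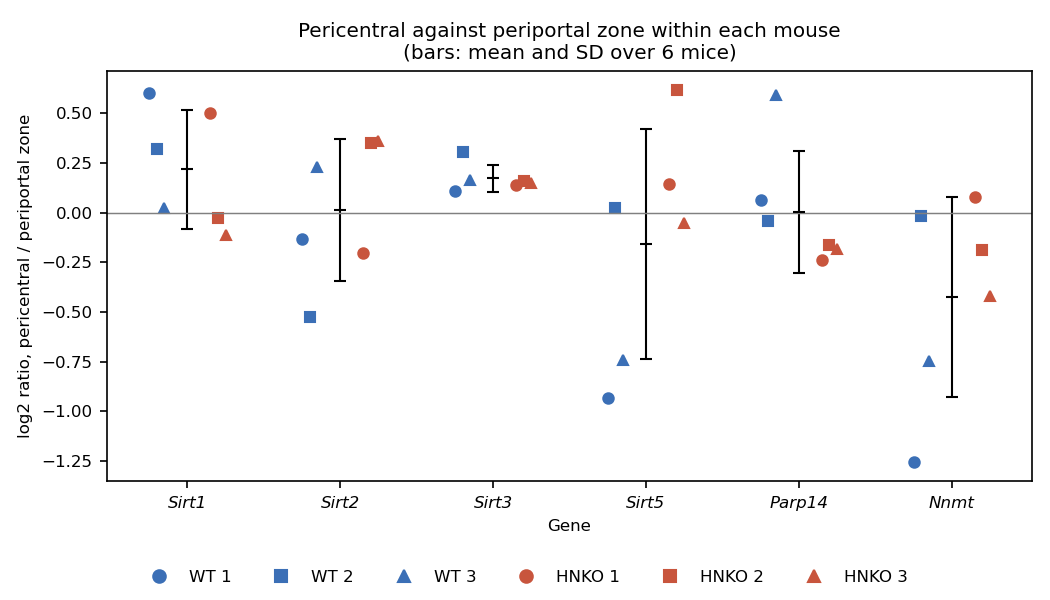
Log2 ratio of the pericentral to the periportal zone of hepatocyte nuclei (y axis; TMM-scaled CPM plus 1) for 6 members (x axis); points are mice, blue WT and red HNKO, and bars are mean and SD of 6 mice. Sirt3 is above 0 in 6 of 6 mice and Nnmt below 0 in 5 of 6.

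Among other genes of the same pathways, 6 of 10 of the methyl donor cycle, 3 of 12 PARPs, 2 of 10 interferon-stimulated genes, both nicotinamide oxidases and 1 of 2 NAD kinases passed FDR 0.05 between the zones, where 20.4% of all genes did; the shares of PARPs and interferon-stimulated genes were near that background. Aox3 and Aox1, oxidases that can turn nicotinamide-derived compounds into pyridones, were higher in the pericentral zone (log2 difference 1.61, SE 0.11, FDR 2.7e-08, and 1.19, SE 0.10, FDR 2.3e-07), in 6 of 6 mice each. Aox3 was at 334 to 583 TMM-scaled CPM pericentral and 86.8 to 263 periportal. Nadk2, the mitochondrial NAD kinase, rose by 0.56 (FDR 7.2e-05), and Nampt was lower by the pericentral side in 6 of 6 mice (-0.45, SE 0.09, FDR 0.0015), with -0.29 and FDR 0.18 in thinned nuclei. In the methyl donor cycle, 4 of 10 were higher in the pericentral zone (Mat2a 0.54, Ahcy 0.49, Mat1a 0.34 and Pemt 0.31) and 2 lower (Bhmt -1.06, SE 0.13, FDR 1.9e-05, and Cbs -0.51). Among 12 other PARP genes tested, Parp10 (0.55) and Parp9 (0.44) were higher and Tiparp (-0.78, FDR 0.00086) lower, and of 10 tested interferon-stimulated genes Parp9 and its partner Dtx3l (0.54) were the 2 called. The list medians were 1.40 for nicotinamide oxidation, 0.12 for the methyl donor cycle, 0.06 for the other PARPs and 0.23 for interferon-stimulated genes, beside -0.01 over all genes. The calls of Mat2a, Dtx3l, Parp10 and Pemt depended on single mice. Mat2a was not called without WT mouse 1, 2 or 3 or HNKO mouse 1 or 2 (FDR up to 0.22), Dtx3l without WT mouse 1, 2 or 3 or HNKO mouse 1 or 3 (up to 0.064), Parp10 without WT mouse 3 or HNKO mouse 2 or 3 (up to 0.19) and Pemt without WT mouse 3 (0.052). Parp10 was higher in 6 of 6 mice but at 55.0 against 26.5 TMM-scaled CPM in HNKO mouse 3 and 13.8 to 24.7 against 11.2 to 18.8 in the others.

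For a genotype effect that differs between zones, 0 of 8 members passed FDR 0.05, with 1 gene called of 9792 (0.0102%). Sirt5 was the 1 member under 0.05 before adjustment (6.03% of all genes; log2 difference 0.85, SE 0.40, FDR 0.81). It was 20.6, 11.3 and 14.7 TMM-scaled CPM periportal and 10.3, 11.5 and 8.39 pericentral in WT mice, and 8.10, 14.2 and 23.8 periportal and 9.05, 22.4 and 22.9 pericentral in HNKO mice. WT mice 1 and 3 were lower in the pericentral zone, and the other 4 mice were on both sides.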

How the data were processed

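Nuclei of frozen liver were sorted (4250 per mouse), pooled and sequenced with the 10x Genomics 3′ kit (version 3.1). The authors made fastq files with Cell Ranger 5.0.1, mapped reads with alevin to GRCm38 with GENCODE M25, kept nuclei with more than 100 and fewer than 1250 hashtag counts and fewer than 5500 features, removed hashtag negatives and multiplets, and named 21 clusters, here merged into 6 cell types. The deposited matrix holds estimated counts (10.1% of non-zero values not whole, tolerance 0.001), per the file headers 1 column per nucleus; hashtag counts as deposited by the authors were used only for the share of the own hashtag. Doublets were treated by the authors' hashtag filter alone. A second, SCTransform-corrected matrix was not used.

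For each mouse, the estimated counts of a type's nuclei (at least 10) were added up, rounded and tested with edgeR 4.0.16 quasi-likelihood (TMM, filterByExpr, Benjamini-Hochberg over all genes tested, two-sided) in R 4.3.3, on genotype alone, or with mouse as a term between zones and for interactions; SE is the log2 fold change over the square root of F. CPM is per 1000000 UMIs of the sum. TMM-scaled CPM leaves out genes under the filter and, between zones, the index genes. DESeq2 1.42.0, RLE factors, library size, no filter, thinning to 1500 UMIs (10 shallower nuclei left out), narrower zones and leaving out each mouse were alternatives. Where 1 mouse of a genotype is left, it is assumed to vary like the others. The fits were also run on simulated data, with large changes in well-counted genes and the same spread for every gene. Such data do not cover small changes, sparse members or a mouse that stands apart. The 10 members are the given set, named in full; of each pathway list every gene called and, in hepatocytes, the 2 largest were named, with up to 3 genes of most similar profile. Members, lists and markers were chosen with earlier results of these data known. Gene positions are from GENCODE vM21 and promoters from RefSeq, both GRCm38. Mice are separate animals, and the pool of each nucleus is not given.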

Additional observations from a re-analysis of the deposited data

Results flagged for a closer look

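Between zones, the log2 ratio of Parp14 was 0.59 in WT mouse 3 and -0.24 to 0.06 in the other 5 mice, and that of Sirt3 was 0.30 in WT mouse 2 and 0.11 to 0.17 in the other 5; each stood apart from its group by Dixon's criterion for 6 values. Of 6 members examined in this way 2 stood apart. The criterion marks about 1 in 20 sets of normally distributed values, and the share over all genes was not computed.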

How the results depend on the processing

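In the 4 comparisons of HNKO with WT and both comparisons of the genotype effect, 0 members passed FDR 0.05 in any alternative run. Between zones, 1 member passed with library size alone, with no count filter, in thinned nuclei and in WT mice only (Nnmt in each), and 1 with narrower zones (Sirt3); leaving out 1 mouse gave 0 to 1. Scaling by library size alone and the fits within one genotype were chosen after seeing the data. Library size alone moved the median of all genes from 0.02 to 0.20 in hepatocytes and turned Sirt3 to 0.061 and Cd38 to 0.085 there, Sirt2 to -0.016 between zones, and Sirt1 to 0.060, Sirt3 to 0.034 and Cd38 to 0.022 in the interaction of genotype with type. Thinning turned Sirt7 to -0.028, Parp10 to -0.037, Aox3 to -0.030 and Nampt to -0.11 in hepatocytes and Sirt3 to -0.088 between zones. It moved Sirt5 from 0.39 to 1.33 and Sirt1 from -0.35 to -0.73 in hepatocytes, neither called. Between zones, library size alone gave Sirt3 0.072. Aox3 in hepatocytes was -0.0032 with RLE factors and -0.0032 with DESeq2. Between zones, Sirt2 was -0.10 and Parp14 0.24 in WT mice only, Sirt5 was 0.25 in HNKO mice only and Parp14 was 0.069 with narrower zones.

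Genes called between genotypes numbered 35 with no count filter and 21 with DESeq2 in hepatocytes, 16 and 1 in endothelial cells, 29 and 1 in stellate cells, and 23 and 4 in CD45+ cells, where library size alone gave 1. Between zones DESeq2 called 1077 genes, thinned nuclei 867, WT mice only 1114 and HNKO mice only 908. The interaction of genotype with type gave 0 genes without a mouse term. Leaving out 1 mouse gave 0 to 32 genes in hepatocytes, 0 to 47 in stellate cells, 0 to 10 in CD45+ cells, 5 to 32 for that interaction and 1 to 21 for that between zones. The cause was not tested.

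Leaving out 1 mouse at a time changed the sign of these log2 values. In hepatocytes the range was -0.61 to 0.13 for Nnmt, -0.25 to 0.23 for Cd38, -0.11 to 0.22 for Parp14, -0.24 to 0.20 for Aox3, -0.40 to 0.024 for Nadk, -0.31 to 0.25 for Nampt, -0.32 to 0.43 for Oard1, -0.034 to 0.61 for Parp10, -1.46 to 1.34 for Rsad2, -0.11 to 0.15 for Sirt7 and -0.79 to 0.093 for Tiparp. In endothelial cells it was -0.19 to 0.15 for Cd38 and -0.49 to 0.028 for Parp14, and in stellate cells -0.46 to 0.46 for Parp14. Between zones it was -0.13 to 0.035 for Parp14, -0.0054 to 0.17 for Sirt2 and -0.28 to 0.065 for Sirt5. The interaction of genotype with type ranged from -0.52 to 0.17 for Cd38, -1.22 to 0.059 for Parp1, -7.54 to 0.13 for Parp2, -0.56 to 0.24 for Sirt1, -0.74 to 0.30 for Sirt3 and -0.26 to 0.75 for Sirt5, and that between zones from -0.22 to 0.94 for Parp2 and -0.086 to 0.0033 for Sirt3. The other pathway genes named between zones kept their direction in all alternatives, and 23 of their values in other settings and 14 without 1 mouse no longer passed.

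No paired analysis was possible because mouse numbers do not pair WT with HNKO animals. The alternative with nuclei of 1 RNA pool was not run, since barcodes do not tell the pool. Low counts limit Sirt6 everywhere and Sirt1, Sirt2, Sirt5, Parp1 and Parp2 outside hepatocytes.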
